A study of Mus musculus with 5 samples.

Results

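The cells described here are the day 6 cells of a 3T3-L1 adipogenesis series in which little or no Adipoq RNA was counted. Adipoq encodes adiponectin, a hormone secreted by mature adipocytes. A cell was taken from either day 6 library when it had at least 500 detected genes, at most 20% of its UMIs (unique molecules) from mitochondrially encoded genes, at least 10000 UMIs, under 2000 CPM (UMIs of a gene on a per-million scale) in the sum of 10 cell division genes, and under 100 CPM of Adipoq. The rule selected 1140 cells, 617 from the untreated culture and 523 from the culture with P-G3, of the 21895 barcodes of the series and of the 3367 non-dividing day 6 cells that passed the same filters. They are called Adipoq-low cells below, and the non-dividing day 6 cells at or above the threshold are called the other cells. A cell is measured once, so these data do not show whether an Adipoq-low cell would have passed the threshold later.

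3T3-L1 is an established line of mouse fibroblasts that can become adipocytes. Each of the 5 groups is 1 single-cell library: day 0, collected before induction, and day 3 and day 6 of differentiation, each without and with the polymer. All cultures were grown in high-glucose DMEM with calf serum. Those of day 3 and day 6 were induced, after confluence, with dexamethasone, insulin and IBMX in medium with fetal bovine serum for a first period and were then kept in insulin. P-G3, a PAMAM polymer, was present at 10 µg/mL from the start of induction in the P-G3 cultures, and cells were freed with trypsin before capture. With 1 library in a group there is no replicate check, no test between groups was made, and every interval given covers counting error only. Each level is summed over the cells of a set, so more cells with a transcript and more transcript per cell cannot be told apart in it.

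In this line, growth-arrested preadipocytes exposed to glucocorticoid, insulin and a cAMP-raising agent switch on Cebpb and Cebpd first and then Pparg and Cebpa, the factors that drive the genes of lipid storage, lipolysis and adipokine secretion. At the same time fibroblast genes for interstitial collagens and the actin cytoskeleton are turned down, while the basement membrane that surrounds a fat cell is built up. Not every cell of an induced culture fills with lipid at the same pace, and cells with few adipocyte transcripts are commonly found beside fat-laden ones.

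Sequences around the start sites of the selection gene and of Dpt and Col3a1, a pair of matrix genes that stood high together in the Adipoq-low cells, are shown because the rest of the account turns on these genes. They are RefSeq windows of GRCm38.p6, 250 bases before to 50 bases after the start, at chr16:23146286-23146585 for Adipoq, chr1:164796413-164796712 for Dpt and chr1:45311288-45311587 for Col3a1, all on the plus strand. Capitals mark TATAAA or CCAAT, searched on both strands, so that a CCAAT on the minus strand reads ATTGG.
Adipoq: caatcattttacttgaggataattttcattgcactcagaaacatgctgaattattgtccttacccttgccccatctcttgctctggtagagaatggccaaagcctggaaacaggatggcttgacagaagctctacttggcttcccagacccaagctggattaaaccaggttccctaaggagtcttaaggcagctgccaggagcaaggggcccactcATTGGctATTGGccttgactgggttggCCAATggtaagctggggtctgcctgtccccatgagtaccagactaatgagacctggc
Dpt: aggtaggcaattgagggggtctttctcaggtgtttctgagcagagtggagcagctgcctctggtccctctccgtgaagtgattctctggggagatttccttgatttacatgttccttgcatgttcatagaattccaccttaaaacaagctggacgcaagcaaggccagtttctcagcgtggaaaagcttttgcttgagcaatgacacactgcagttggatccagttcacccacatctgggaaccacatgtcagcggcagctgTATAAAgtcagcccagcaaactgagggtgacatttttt
Col3a1: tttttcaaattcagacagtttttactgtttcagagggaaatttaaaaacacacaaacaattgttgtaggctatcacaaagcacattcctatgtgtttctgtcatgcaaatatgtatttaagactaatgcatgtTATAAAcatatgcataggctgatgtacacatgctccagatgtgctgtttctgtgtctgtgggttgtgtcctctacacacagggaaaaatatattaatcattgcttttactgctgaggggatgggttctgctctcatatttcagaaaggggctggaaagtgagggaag
The Adipoq window held 3 matches to CCAAT and none to TATAAA, and the Dpt and Col3a1 windows each held 1 match to TATAAA and none to CCAAT. The Dpt match lies after the annotated start, from base 13, and the Col3a1 match begins at base -117. Of 32851 such windows of 300 bases, 13.6% held TATAAA and 37.4% held CCAAT. A match describes letters in the window and is not evidence of a bound factor.

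Adipoq-low cells made up 617 of 1515 non-dividing cells of the untreated day 6 culture (40.7%, exact Clopper-Pearson 95% interval 38.2 to 43.2) and 523 of 1852 with P-G3 (28.2%, 26.2 to 30.4). The same rule took 2867 of 2867 cells on day 0, 2594 of 2778 (93.4%, 92.4 to 94.3) on day 3 untreated and 2596 of 2956 (87.8%, 86.6 to 89.0) on day 3 with P-G3. The share was therefore lowest on day 6 with P-G3. No Adipoq UMI was found in 385 of the 617 untreated members and in 257 of the 523 with P-G3. The day 6 share also moved with depth, at 58.1% untreated and 38.7% with P-G3 when only cells of 20000 to 60000 UMIs were counted, and its order between the cultures was the same there.

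**Figure D1:**
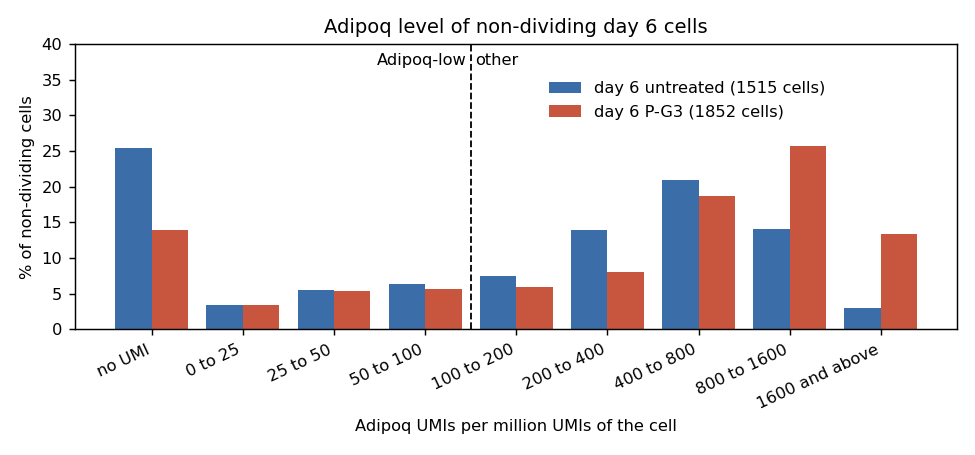
Adipoq level of each non-dividing day 6 cell, in CPM binned along the x axis, against the percent of cells in the bin, for the untreated culture (1515 cells) and the P-G3 culture (1852 cells); the dashed line is the threshold of 100. Cells without an Adipoq UMI made up 25.4% and 13.9%, and among cells with an Adipoq UMI the fullest bin was 400 to 800 CPM untreated and 800 to 1600 CPM with P-G3.

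The summed levels of the marker genes differed across the threshold. Just inside it, at 50 to under 100 CPM of Adipoq, were 97 untreated cells in which Dpt stood at 23.9 CPM of the summed cells, Apoe at 90.0 CPM, Col3a1 at 661 CPM and Fabp4 at 13335 CPM. Just outside, at 100 to under 200, were 113 untreated cells with Dpt at 8.40, Apoe at 9.94, Col3a1 at 303 and Fabp4 at 20882 CPM. The 105 and 109 P-G3 cells of these ranges had Dpt at 16.0 and 7.76 CPM, Apoe at 64.2 and 16.3 CPM and Col3a1 at 451 and 242 CPM. Apoe was not in order with Adipoq inside the threshold, at 36.7 CPM in the untreated cells above 0 and below 50 CPM of Adipoq. A few cells held most Apoe UMIs of the Adipoq-low sets, as described below, so its level in such ranges can rest on few cells. Cells without any Adipoq UMI had Dpt at 90.5 CPM, Apoe at 180 CPM and Fabp4 at 6121 CPM in the untreated culture, and 38.8, 75.7 and 8362 CPM with P-G3.

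The 2 day 6 sets held 25824929 and 20373829 UMIs. The lowest, median and highest cell had 10310, 39296 and 144189 UMIs in the untreated set and 10005, 36260 and 215155 in the P-G3 set. The other cells were deeper, with medians of 64316 and 59872 UMIs. The median mitochondrial share was 5.20% and 4.54% in the Adipoq-low cells and 7.32% and 5.74% in the other cells. Whole libraries held between 92556168 and 179449285 UMIs, each pair of libraries shared 4 to 7 cell barcodes, and the 2 Adipoq-low sets shared none. Of the day 6 barcodes, 2606 untreated and 1954 with P-G3 had fewer than 500 genes and were left out. The gene and mitochondrial filters passed 2468 untreated and 3546 P-G3 barcodes. Of these, 927 and 1665 had under 10000 UMIs and were also left out. The part of depth and mitochondrial share in the differences below was not tested.

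Dpt, Apoe and Col3a1, the genes given as marks of these cells, stood far above their levels in the other cells of the same culture. Dpt encodes dermatopontin, a small protein that binds decorin and collagen fibrils. Its level was 66.7 CPM (exact Poisson 95% interval 63.6 to 69.9) in untreated Adipoq-low cells and 31.7 CPM (29.3 to 34.2) in P-G3 ones, against 2.62 and 1.25 CPM in the other cells. On day 0 it was 5.73 CPM, and in the Adipoq-low cells of day 3 it was 7.65 CPM untreated and 2.79 CPM with P-G3. Both day 6 Adipoq-low sets were thus above every other set, with the untreated one the higher.

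Apoe, which encodes the lipid carrier apolipoprotein E, was higher at each later day in both cultures, unlike Dpt, which with P-G3 was lower on day 3 than on day 0. Apoe was 1.94 CPM on day 0, 25.1 and 17.6 CPM in the day 3 Adipoq-low cells, and 125 (121 to 129) and 84.2 CPM (80.2 to 88.3) in those of day 6. The other day 6 cells had 8.46 and 4.93 CPM.

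Col3a1, the chain of type III collagen, was already abundant before induction, at 582 CPM (578 to 586) on day 0. It was 765 CPM on day 3 untreated and 391 CPM on day 3 with P-G3. The day 6 Adipoq-low cells had 1298 CPM (1284 to 1312) untreated and 695 CPM (683 to 706) with P-G3, and the other cells 183 and 154 CPM. With or without P-G3 the Adipoq-low cells had more than the other cells of their own library and more than the day 3 cells of the same treatment.

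**Figure D2:**
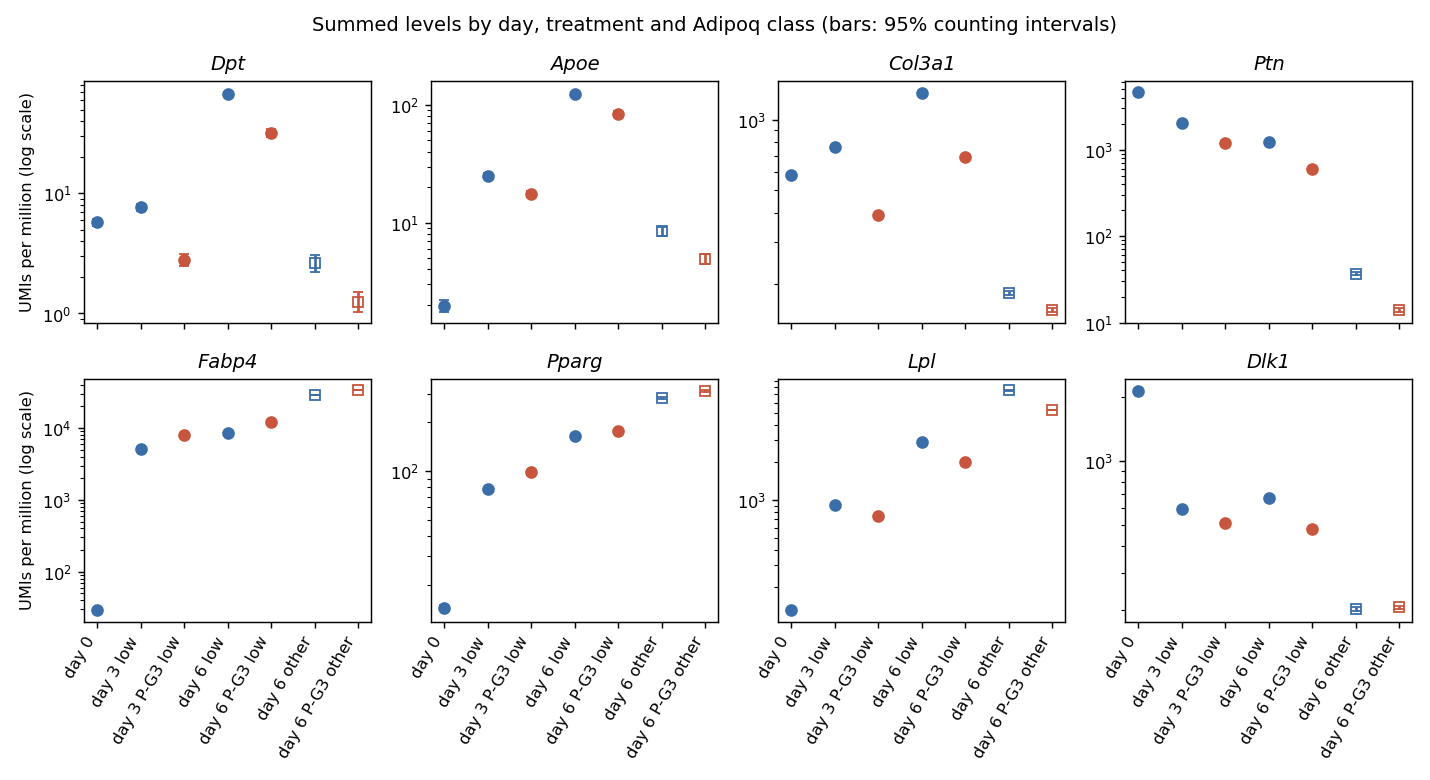
Levels of 8 genes in CPM on a log axis over 7 sets of cells, from day 0 to the other day 6 cells; circles are Adipoq-low sets, open squares the other day 6 cells, blue untreated and red P-G3, with exact Poisson 95% intervals. Dpt and Apoe peak in the day 6 Adipoq-low cells, Ptn is highest on day 0, and Fabp4 and Lpl are highest in the other day 6 cells.

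In single cells Col3a1 was found in most members, and Dpt and Apoe in fewer. The lowest, median and highest untreated member had 0, 29.4 and 1268 CPM of Dpt, 0, 10.5 and 10693 for Apoe and 0, 1125 and 9349 for Col3a1. In the P-G3 members the medians were 0 for Dpt, 0 for Apoe and 537 for Col3a1. After each cell was thinned to 10000 UMIs, Dpt was found in 37.1% of untreated members (33.3 to 41.1) and in 1.89% of the other cells, and in 24.3% (20.7 to 28.2) and 1.13% with P-G3. Apoe was found in 30.1% against 6.90% untreated and in 19.5% against 4.06% with P-G3, and Col3a1 in 96.1% against 63.9% and in 90.4% against 64.2%. Without thinning, the members' shares were 60.1% and 44.4% for Dpt, 50.1% and 34.2% for Apoe and 99.0% and 95.2% for Col3a1. Free RNA can add to such shares, and its part was not tested. The shares in the other cells are given beside these, but those cells were deeper and their shares are not an estimate of free RNA.

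The comparison of Adipoq-low with other cells describes the selection, because the cells were selected on Adipoq, and it carries no test. A gene was counted when it differed by 2-fold or more with at least 20 CPM in either set, on the scale log2((CPM + 1)/(CPM + 1)), which understates differences of low genes. In the untreated culture 365 of 5941 genes (6.14%) were higher and 331 (5.57%) were lower in the Adipoq-low cells. With P-G3, 184 of 4946 (3.72%) were higher and 324 (6.55%) were lower. The higher sets shared 168 genes, 46.0% of the untreated set and 91.3% of the P-G3 set, and the lower sets shared 247, 74.6% and 76.2%. Across 4858 genes the log2 ratios of the 2 cultures had a Pearson r of 0.95 and a Spearman rho of 0.89, a description over genes, which are not independent, from libraries with no shared samples. Exact conditional binomial 95% intervals of the ratios had a median width of 0.17 (untreated) and 0.20 (P-G3) on the log2 scale over the 24 genes chosen for the size of their ratios.

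**Figure D3:**
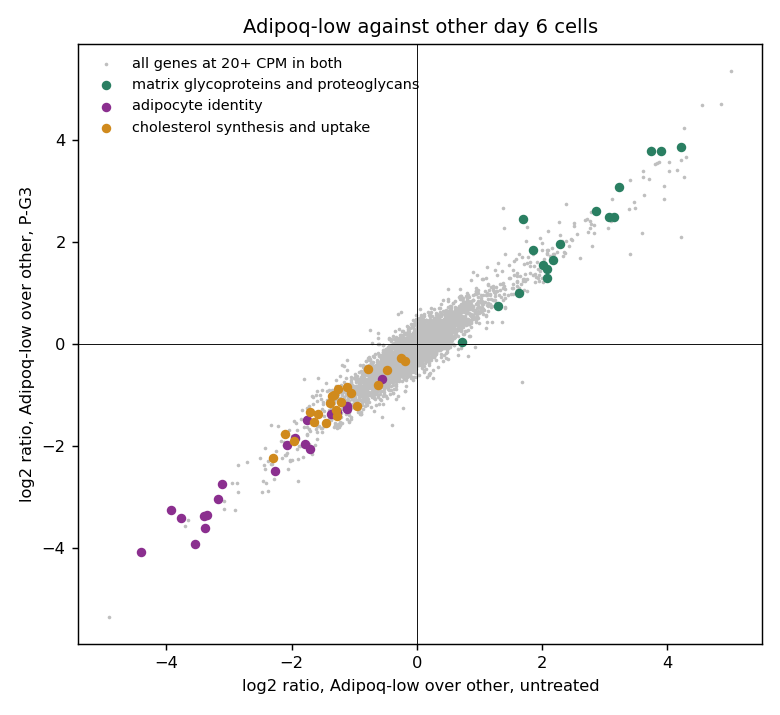
Log2 ratio of Adipoq-low over other cells in the untreated culture (x axis) and in the P-G3 culture (y axis), 1 point per gene with at least 20 CPM in either set of both cultures; matrix glycoproteins are green, adipocyte genes purple and cholesterol genes orange. Matrix genes lie to the upper right and adipocyte genes to the lower left in both cultures.

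Many genes of the extracellular matrix were on the higher side. Of 22 matrix glycoprotein and proteoglycan genes with at least 20 CPM, 20 were higher and none lower in the untreated culture, with a list median of 2.17 on the log2 scale beside -0.01 over all genes. With P-G3 it was 14 of 17, with a median of 1.85 beside -0.11. Postn, which encodes the matrix protein periostin, was at 401 CPM in Adipoq-low and 29.3 CPM in other untreated cells, and at 206 and 14.2 CPM with P-G3. Mgp, an inhibitor of calcification, had ratios of 3.89 and 3.78, and Fbn1, the microfibril protein, 3.83 and 2.81. Prelp stood out at 19.1 CPM in the untreated Adipoq-low cells and 27.8 CPM in the others, the reverse order.

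Of 17 collagen chain genes, 11 were higher and none lower untreated (median 1.24), and 6 of 15 with P-G3 (median 0.79). The fibrillar chains had the larger ratios. Col1a1 was at 1474 CPM in Adipoq-low and 103 CPM in other untreated cells, and at 647 and 54.6 CPM with P-G3. The type VI chains differed less, as with Col6a3 at 1313 and 912 CPM untreated and 851 and 548 CPM with P-G3. Col15a1, a chain of the basement membrane zone, went the opposite way, at 33.8 CPM in Adipoq-low and 59.2 CPM in other untreated cells.

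The basement membrane list differed less than the interstitial matrix, with 6 of 13 genes higher untreated (median 0.99) and 2 of 11 with P-G3 (median 0.72). Nid1, which links laminin to type IV collagen, was at 366 CPM in Adipoq-low and 244 CPM in other untreated cells. Among collagen-processing genes 7 of 14 were higher untreated and 5 of 11 with P-G3, led by Adamts2, which trims procollagen, with log2 ratios of 4.16 and 3.35, and by Lox, the lysyl oxidase that crosslinks collagen, at 191 against 14.7 CPM and 59.6 against 5.27 CPM. Metalloproteinases and their inhibitors were higher in 9 of 12 and in 8 of 8. Timp2, an inhibitor, had ratios of 4.22 and 3.60, and Mmp2, a gelatinase, 3.61 and 3.38.

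Surface markers of preadipocytes and progenitors were higher in 11 of 17 untreated and in 8 of 15 with P-G3, with medians of 1.88 and 1.58. Pdgfra, the receptor that marks adipose progenitors, was at 71.8 CPM in Adipoq-low and 9.98 CPM in other untreated cells, and at 27.1 and 5.22 CPM with P-G3. Thy1 was at 102 and 14.0 CPM untreated and 90.1 and 14.1 CPM with P-G3. Dlk1, a preadipocyte protein that inhibits differentiation, was at 672 against 202 CPM and at 480 against 206 CPM. Cd9 did not separate the sets, at 159 CPM in both untreated sets, and Aoc3 was lower in the Adipoq-low cells, at 59.7 against 106 CPM untreated.

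Progenitor transcription factors and inhibitors of adipogenesis were higher in 11 of 22 (median 0.86) and in 6 of 17 (median 0.43). Osr1, a factor of mesenchymal progenitors, had ratios of 3.34 and 3.11 from levels of 21.5 and 13.9 CPM. Prrx1 was at 130 against 33.0 CPM untreated and 60.9 against 23.2 CPM with P-G3. Twist1, by contrast, was at 58.4 and 52.3 CPM untreated and 34.3 and 33.7 CPM with P-G3.

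Secreted growth factors were among the genes with the largest ratios. Ptn, which encodes the growth factor pleiotrophin, was at 1217 CPM (1204 to 1230) in untreated Adipoq-low and 36.6 CPM in other cells, and at 602 (591 to 613) and 13.9 CPM with P-G3, log2 ratios of 5.02 and 5.34. Gas6, a ligand of the receptor Axl, was at 327 against 26.1 CPM untreated and 73.1 against 15.5 CPM with P-G3. Axl itself was at 42.1 against 7.36 CPM and 21.0 against 5.41 CPM, so ligand and receptor were both higher in the Adipoq-low cells of each culture. The chemokine Cxcl12 was at 653 against 57.8 CPM untreated and 263 against 41.0 CPM with P-G3. Of 18 growth factor and receptor genes 9 were higher and 1 lower untreated, and of 15 with P-G3 5 were higher and none lower.

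Contractile genes and targets of SRF and YAP were higher in 13 of 19 and lower in 1 untreated, and higher in 10 of 18 with P-G3, with medians of 1.28 and 1.11. Acta2, smooth muscle actin, was at 733 against 40.1 CPM untreated and 784 against 73.0 CPM with P-G3. The member that went down was Des, the intermediate filament protein desmin, at 13.9 against 35.9 CPM untreated. S100a4, a calcium-binding protein of motile fibroblasts, had ratios of 4.27 and 4.22, from 924 against 47.0 CPM and 797 against 41.9 CPM. Ctla2a, an inhibitor of cathepsins, had 4.85 and 4.69, and its value is uncertain because reads may be shared with the near-copy Ctla2b.

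On the lower side stood the genes of fat storage. Of 21 adipocyte genes with at least 20 CPM, a list that leaves out Adipoq, 20 were lower in the untreated Adipoq-low cells and none higher (median -2.26), and 19 of 20 were lower with P-G3 (median -2.50). Adipoq itself, which set the groups, was at 21.0 CPM against 660 CPM untreated and at 25.9 against 1092 CPM with P-G3. Cfd, the adipokine adipsin, was at 108 against 1262 CPM and 128 against 1955 CPM, and Cidec, which enlarges lipid droplets, at 61.9 against 848 CPM and 58.2 against 631 CPM. Plin4, a droplet coat protein, differed least in the list, at 132 against 195 CPM and 78.0 against 127 CPM.

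Lipid synthesis was lower as well. Fatty acid synthesis genes were lower in 8 of 17 and 8 of 16, with none higher, and triglyceride synthesis genes in 7 of 15 and 8 of 11. Scd1, the desaturase that makes oleate, was at 621 against 4467 CPM untreated and 371 against 1918 CPM with P-G3. Cholesterol synthesis and uptake genes were lower in 16 of 23 and 14 of 22, with medians of -1.27 and -1.16. Among them Insig1, a sterol-regulated brake on the pathway, was at 27.1 against 137 CPM untreated, and Hmgcs1, an early enzyme of it, at 84.9 against 267 CPM. Citric acid cycle genes were lower in 7 of 23 in each culture, and fatty acid oxidation genes in 4 of 18 and 9 of 18.

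Adipogenic transcription factors were lower in 4 of 16 and 4 of 14, with medians of 0.06 and -0.18. Pparg was at 165 CPM in Adipoq-low and 283 CPM in other untreated cells, and at 177 and 313 CPM with P-G3, so that the Adipoq-low cells had 58.2% and 56.6% of the other cells' level. For Cebpa the shares were 29.1% and 27.9%, for Fabp4, the fatty acid binding protein, 29.5% and 35.7%, for Lpl, lipoprotein lipase, 38.4% and 38.7%, for Scd1 13.9% and 19.3%, for Cidec 7.29% and 9.23%, and for Thrsp, a lipogenic nuclear protein, 3.69% and 4.88%. The Cidec and Scd1 levels rest in part on a few cells: without the 39 untreated and 32 P-G3 members with at least 200 CPM of Cidec, a level chosen after the values were seen, Cidec was at 26.0 and 35.3 CPM and Scd1 at 356 and 289 CPM. The part of free RNA in these remaining levels was not tested.

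Against day 0, the untreated Adipoq-low cells of day 6 were far from the starting population. Of 5909 genes, 616 (10.4%) were 2-fold higher and 359 (6.08%) lower, a split that became 464 and 502 with TMM scaling and 456 and 505 with median-of-ratios scaling. The median over all genes was 0.15, and it was -0.04 with TMM scaling. All 17 adipocyte genes with at least 20 CPM were higher, with a list median of 4.81. Fabp4 was at 29.7 CPM on day 0 and 8591 CPM (8555 to 8627) in the Adipoq-low cells, and G0s2, an inhibitor of the lipase Atgl, at 0.482 and 790 CPM. Cfd had no UMI on day 0 and 2787 in the Adipoq-low cells, at least 5002-fold higher against a floor of 3 counts over the day 0 set. Plin1, the main droplet coat protein, had 3 UMIs on day 0 and a level of 80.2 CPM on day 6. The selection on Adipoq held in both sets, and these genes were not used in it. Cfd was at 417 CPM in the 39 untreated members with at least 200 CPM of Cidec and at 84.0 CPM in the rest. The other untreated day 6 cells had 1262 CPM of Cfd. Free RNA can add to the day 6 levels of such genes, and its part in these ratios was not tested.

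Adipogenic transcription factors were higher in 12 of 16 and lower in 1 against day 0, with a median of 1.85, as with Cebpa, which had 1.61 CPM before induction and 39.0 CPM in these cells, and Pparg, which had 14.5 and 165 CPM. Glucocorticoid targets were higher in 15 of 16 (median 2.18), among them Fkbp5, a receptor chaperone, at 24.7 and 124 CPM. Basement membrane genes were higher in 10 of 13 (median 1.37), and collagen chains in 11 of 17 (median 1.19), with Col6a3 at 201 and 1313 CPM. Complement and acute phase genes were higher in 5 of 6, led by C3, the central complement protein, at 9.79 and 537 CPM.

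Other fibroblast genes were lower than on day 0. Contractile genes were lower in 9 of 21 and higher in none (median -0.94), with Acta2 at 3028 and 733 CPM and Tagln, a smooth muscle actin-binding protein, at 528 and 46.2 CPM. Timp1, an inhibitor of metalloproteinases, was at 2148 and 136 CPM, Hmga2, a chromatin protein of growing cells, at 705 and 70.2 CPM, and Dlk1 at 2142 and 672 CPM. Ptn was at 4614 and 1217 CPM, so this gene, far above the other day 6 cells, was also below the start. Matrix glycoproteins were split, 6 higher and 4 lower of 23, with a median of 0.09 that was -0.11 with TMM scaling. Cholesterol genes had none of 19 past 2-fold, with a median of -0.17.

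Against Adipoq-low cells of day 3, which the same rule selected, fewer genes differed. In the untreated cultures 178 of 5755 genes (3.09%) were higher and 92 (1.6%) lower on day 6, and with P-G3 131 of 4891 (2.68%) were higher and 140 (2.86%) lower, a split that became 162 and 119 with TMM scaling and 175 and 115 with median-of-ratios scaling. The adipocyte list was higher in 7 of 17 in each pair of libraries, with medians of 0.93 and 0.86. Lpl was at 909 and 2894 CPM untreated and 739 and 2020 CPM with P-G3, and Cidec at 50.3 and 61.9 CPM and at 57.0 and 58.2 CPM. In summed level, some adipocyte genes were thus higher on day 6 and some near the day 3 level within cells still under the Adipoq threshold. After thinning, Cidec was found in more cells on day 6, in 24.0% against 13.6% untreated and 26.4% against 19.5% with P-G3. The rule took 93.4% and 87.8% of the non-dividing cells on day 3 but 40.7% and 28.2% on day 6, so the sets are unlike selections.

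Among lists with 10 or more measured members, those with the largest medians against day 3 were targets of ATF4 and of hypoxia. Targets of ATF4, the factor of the amino acid and unfolded protein response, were higher in 13 of 25 untreated (median 1.20) and in 10 of 23 with P-G3 (median 0.91), with none lower. Trib3, a target that restrains insulin signalling, was at 5.67 and 72.6 CPM untreated and 6.87 and 64.6 CPM with P-G3. Asns, asparagine synthetase, was at 90.0 and 232 CPM untreated but at 295 CPM on day 0. Hypoxia targets were higher in 13 of 19 (median 1.28) and in 8 of 19 (median 1.00), with Ero1l, an oxidase of the endoplasmic reticulum, at 38.1 and 496 CPM and at 39.1 and 403 CPM, and Vegfa, the angiogenic factor, at 35.5 and 179 CPM and at 32.7 and 146 CPM. The other day 6 cells had 219 and 159 CPM of Vegfa, and the Adipoq-low cells were not above them in either culture. For Adipoq-low over other cells, the list medians were -0.34 untreated and -0.32 with P-G3 for ATF4 targets. For hypoxia targets they were -0.27 and -0.15, beside -0.01 and -0.11 over all genes. Higher levels than on day 3 were thus not particular to the Adipoq-low cells in these lists.

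Ghrh, which encodes growth hormone releasing hormone, had the largest ratio in both day 3 comparisons, at 0.656 and 108 CPM untreated and 0.544 and 113 CPM with P-G3. The other day 6 cells had more, 610 and 848 CPM, and the median Adipoq-low cell had 0 CPM in both cultures. Members with at least 200 CPM of Cidec had 704 CPM against 62.3 CPM in the rest untreated, and 359 against 93.5 CPM with P-G3. The part of free RNA in these levels was not tested. Rarres2, the adipokine chemerin, was at 55.8 and 406 CPM and at 84.9 and 508 CPM. Glucocorticoid targets were split or lower, with 2 higher and 2 lower of 18 untreated and 1 higher and 5 lower of 17 with P-G3, as with Fkbp5 at 274 and 124 CPM and at 212 and 74.6 CPM. Among the lowest ratios was that of Rrm2, a subunit of ribonucleotide reductase, at -1.67 and -2.46. Birc5 and Ube2c, also among the lowest, belong to the division sum that limited the cells. With that sum held below 1000 CPM, 66 and 116 genes were lower than on day 3 in place of 92 and 140.

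The Adipoq-low cells were not uniform. Ordered by Fabp4, from the lowest to the highest quartile group of cells in each culture, the sets ran from 1025 to 19142 CPM of Fabp4 untreated and from 1790 to 24190 CPM with P-G3. Over the same groups Ptn ran from 2722 to 376 CPM untreated and from 1293 to 137 CPM with P-G3, and Dcn, which encodes the proteoglycan decorin, from 516 to 73.0 and from 323 to 44.3 CPM. Cdh11, a mesenchymal cadherin, ran from 198 to 30.3 and from 53.2 to 5.37 CPM. In the opposite direction went Lipe, hormone-sensitive lipase, from 23.2 to 169 and from 31.7 to 184 CPM, Plin1 from 12.6 to 151 and from 21.9 to 103 CPM, and Pparg from 77.0 to 221 and from 96.2 to 242 CPM. Apoe had no such order with P-G3, at 86.2, 158, 99.8 and 16.3 CPM. The median cell of the lowest and highest group had 30043 and 48868 UMIs untreated and 25669 and 46528 with P-G3, and the part of depth in these orders was not tested.

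**Figure D4:**
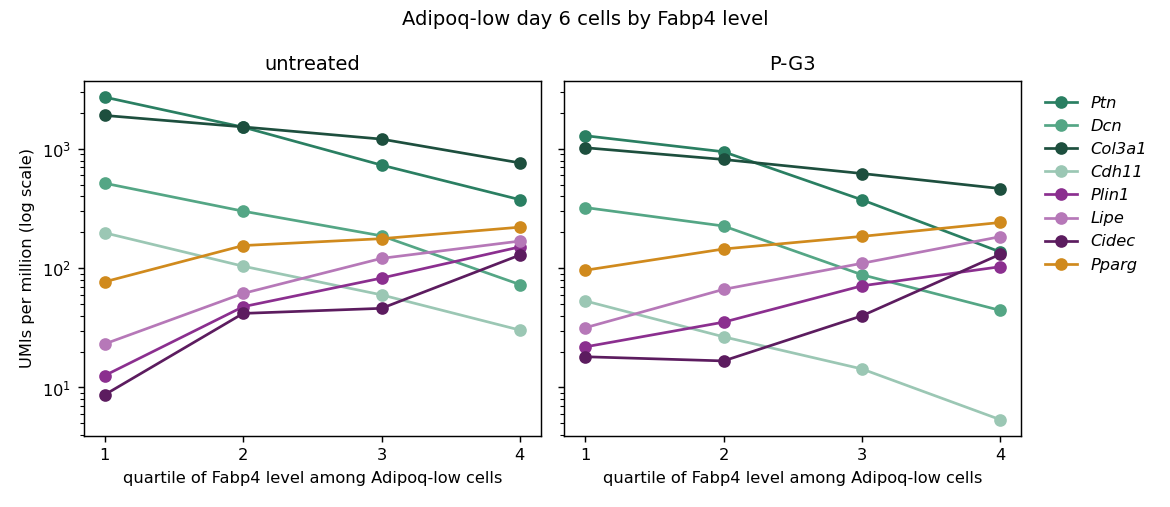
Levels of 8 genes in CPM (log axis) over quartile groups of the Adipoq-low cells ordered by Fabp4, with the untreated culture and the P-G3 culture in separate panels. Ptn, Dcn, Col3a1 and Cdh11 go down and Plin1, Lipe, Cidec and Pparg go up from the lowest to the highest group in both panels.

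Ranked over both cultures, leaving out mitochondrial and ribosomal protein genes, Fabp4 had the highest ratio of variance to mean over cells after thinning. The ratio was 137 untreated and 99.8 with P-G3. It tends to be larger for abundant genes, so it does not rank genes by spread relative to their mean. The thinned means were 79.8 and 107 UMIs per cell for Fabp4 and 1.83 and 1.09 for Apoe. Fabp4 was between 98.2 and 136284 CPM over the untreated members, with a median of 5085, and between 108 and 72261 with a median of 7751 in the P-G3 members. At 10000 UMIs it was found in 99.8% and 100% of them. Acta2 had a ratio of 43.5 and 32.7, Apoe 29.2 and 29.7, Ptn 29.2 and 24.7, and Dpt 3.16 and 1.94.

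For 3 genes of wide spread, cells above a level chosen after the values were seen are described below. Cells with at least 1000 CPM of Apoe numbered 29 of 617 untreated (4.70%, 3.17 to 6.68) and held 62.4% of that set's Apoe UMIs, and 13 of 523 with P-G3 (2.49%, 1.33 to 4.21) held 65.9%. Among the other cells only 1 untreated and 2 with P-G3 reached that level. Apoe was at 2364 CPM in these untreated cells and 48.5 CPM in the rest, and Apoc1, its neighbouring apolipoprotein gene, at 270 and 58.5 CPM. With P-G3 Apoc1 was at 121 and 44.2 CPM. It was not particular to these cells, at 171 CPM in the other day 6 cells untreated and 109 CPM with P-G3. Timp4 was at 288 against 121 CPM untreated and 659 against 121 CPM with P-G3. Most Apoe molecules of the Adipoq-low cells therefore came from a few cells.

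Cells with at least 2000 CPM of Acta2 numbered 71 untreated (11.5%, 9.10 to 14.3) and 61 with P-G3 (11.7%, 9.04 to 14.7), and 0.445% and 0.677% of the other cells reached that level. They carried other contractile genes, with Tagln at 298 against 12.6 CPM in the rest of the untreated members and 146 against 9.74 CPM with P-G3, and Myl9, a myosin light chain, at 133 against 5.40 and 186 against 10.0 CPM. Hmga2 was at 329 against 35.8 CPM untreated and 40.7 against 17.4 CPM with P-G3, and Ccl2, a monocyte chemokine, at 226 against 8.69 and 35.9 against 4.32 CPM. In the untreated culture 56 cells lay between 1000 and 2000 and 47 between 2000 and 4000, so the level cuts a continuous range.

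Cells with at least 200 CPM of Cidec numbered 39 untreated (6.32%, 4.53 to 8.54) and 32 with P-G3 (6.12%, 4.22 to 8.53), and held 61.1% and 43.8% of their sets' Cidec UMIs, while 81.3% and 79.0% of the other cells reached that level. They had Scd1 at 4038 against 356 CPM in the rest of the untreated members and 1405 against 289 CPM with P-G3, and Ptn at 8.62 against 1311 and 39.7 against 646 CPM. In the untreated cells of this range Dpt was at 4.31 CPM and Col3a1 at 187 CPM, near the levels of the other day 6 cells, while Adipoq was at 63.6 CPM, under the threshold. Retnla, a resistin-like secreted protein, was at 837 CPM in them and 14.6 CPM in the rest. The 3 ranges shared no cell, except 1 P-G3 cell that was in both the Acta2 and the Apoe range.

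On the total-count scale, Adipoq-low cells of the P-G3 culture had lower levels than untreated ones for most genes that differed. Of 5586 genes 9 (0.161%) were higher and 549 (9.83%) lower with P-G3, and the median over all genes was -0.42. This split depends on scaling, being 129 and 75 with TMM, 168 and 57 with median-of-ratios scaling, and 60 and 41 once the trend with transcript length was removed. The ratio followed length over 9209 genes, with a Spearman rho of -0.61 and a median of 0.23 in the shortest bin (median 741 nt) and -0.89 in the longest (10024 nt). In the other day 6 cells 7 of 5527 genes (0.127%) were higher and 97 (1.76%) lower, with the same rho of -0.61 and a median of -0.32. The length trend is therefore in both sets of cells of these 2 libraries, and with 1 library per group a library effect and an effect of P-G3 cannot be told apart in it, nor in the measured or the corrected ratios. Within each library the ratio of Adipoq-low to other cells had a rho of 0.07 and -0.06. Values with the trend removed are given below in brackets after the measured log2 ratio. Genes named for the size of this ratio were chosen among those that kept their sign with the trend removed. For them the shared sign in Adipoq-low cells follows from the choice and is no check.

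The 3 marker genes were all lower with P-G3, with log2 ratios of -1.05 (-0.89) for Dpt, -0.56 (-0.68) for Apoe and -0.90 (-0.17) for Col3a1. In the other cells the same ratios were -0.69 (-0.63), -0.67 (-0.82) and -0.25 (0.29), so that the direction of Col3a1 there turned with the trend removed, as it did with TMM scaling (0.10). Egr1, an immediate early gene, had 146 CPM without and 25.7 CPM with the polymer, -2.46 (-1.80), Gas6 was at 327 and 73.1 CPM, -2.15 (-1.78), and Cdh11 at 89.3 and 21.7 CPM, -1.99 (-1.26). Sox4, a factor of progenitor cells, was at 154 and 46.0 CPM, -1.72 (-1.08). Retnla was at 73.7 and 20.9 CPM, -1.77 (-2.00), but at 0.28 without the cells of high Cidec and at 0.37 among cells without an Adipoq UMI, so its direction rests on few cells.

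On the higher side were the carbonyl reductases Cbr2, at 96.0 and 231 CPM, 1.25 (1.03), and Cbr1, at 68.5 and 144 CPM, 1.06 (0.94). Hsd11b1, which regenerates active glucocorticoid, was at 76.5 and 182 CPM, 1.24 (1.26). Ly6a, the surface protein Sca-1, was at 64.4 and 140 CPM, 1.11 (0.89), with possible sharing of reads within the Ly6 family. The lipid droplet genes Hilpda and G0s2, both inhibitors of Atgl, were at 64.9 and 130 CPM and at 790 and 1407 CPM, 1.00 (0.77) and 0.83 (0.61). In the other cells the ratios were 1.12 (0.92) for Cbr2, 1.21 (1.06) for Cbr1, 0.88 (0.85) for Hsd11b1, 1.66 (1.46) for Ly6a, 0.36 (0.16) for Hilpda and 0.18 (0.03) for G0s2. Fabp4 was at 8591 and 11969 CPM, 0.48 (0.25).

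By list, 9 of 17 collagen genes were lower with P-G3 and none higher, with a median of -1.02 that became -0.27 with the trend removed. Growth factors and receptors were lower in 10 of 17 (-0.97, and -0.35 with the trend removed), Wnt pathway genes in 5 of 7 (-1.28 and -0.49) and matrix glycoproteins in 5 of 21 (-0.89 and -0.32). These medians were lower than that of all genes, and part of each distance went with transcript length. Adipocyte genes had none of 17 past 2-fold, with a median of -0.06 (0.06), and adipogenic transcription factors 2 of 14 lower (-0.74 and -0.07). Hypoxia targets had a median of 0.10 (0.48), cholesterol genes -0.01 (0.51) and ATF4 targets -0.17 (0.30), and of their members none was 2-fold higher, Hilpda lying just under. With TMM scaling, which centres all genes near 0, the adipocyte, cholesterol and ATF4 medians were above 0, at 0.37, 0.41 and 0.26.

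**Figure D5:**
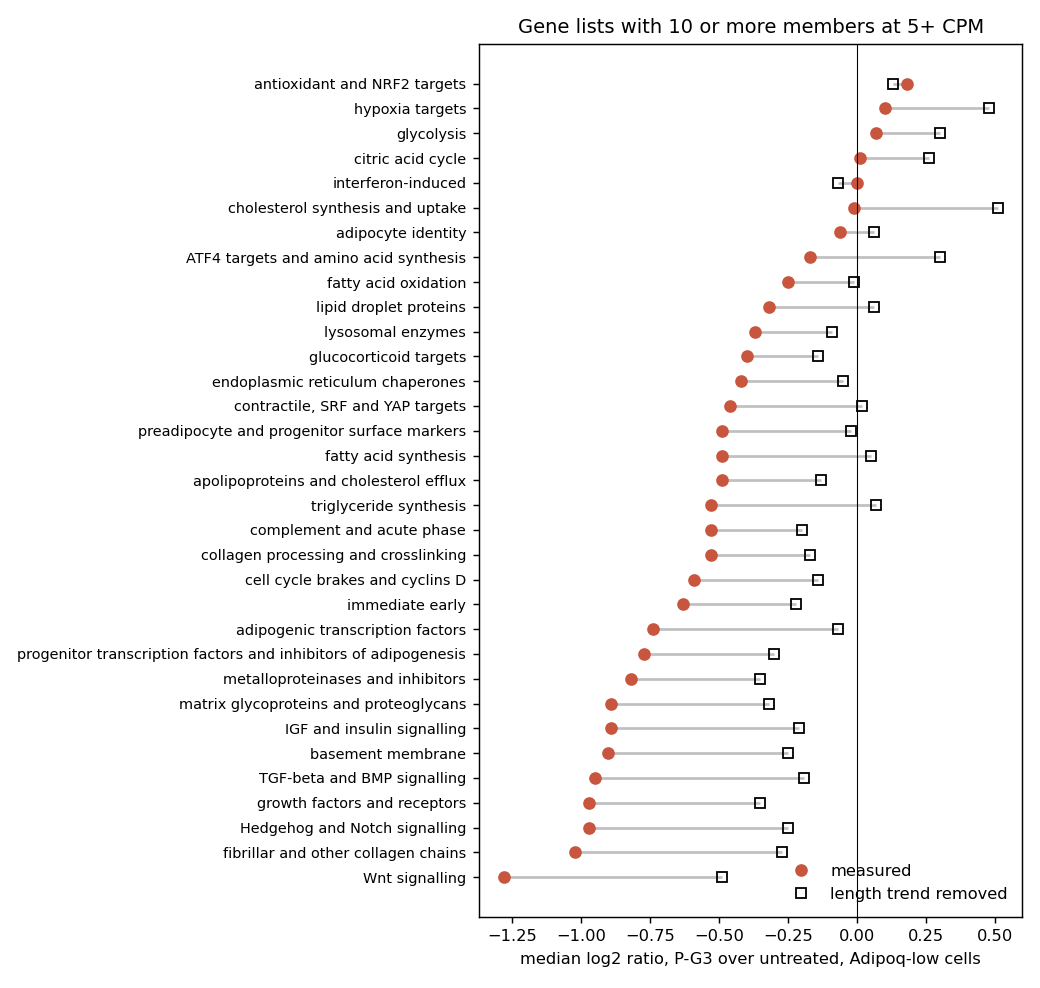
Median log2 ratio of P-G3 over untreated Adipoq-low cells (x axis) for each gene list with 10 or more members at 5 CPM or more, as measured (red dots) and with the length trend removed (open squares). Measured medians run mostly below 0, and with the trend removed most lie nearer to 0 while the cholesterol and hypoxia lists lie at 0.51 and 0.48.

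Markers of other cell types were low or at 0. The 11 immune markers summed to 5.92 CPM in untreated and 7.12 CPM in P-G3 Adipoq-low cells, with Ptprc, Adgre1, Tyrobp, Itgam and Cd3e at 0 in the untreated set, and the 10 endothelial markers to 7.40 and 10.4 CPM, with Kdr, Tie1, Vwf, Erg and Cldn5 at 0. The 10 skeletal muscle markers summed to 5.96 and 9.03 CPM, with Myod1 and Myog at 0, and the 10 mesothelial and epithelial markers to 6.23 and 4.86 CPM against 30.9 and 39.1 CPM in the other cells. Bone and cartilage markers summed to 178 and 198 CPM, mostly Spp1, a secreted phosphoprotein that stood at 1201 CPM in day 0 cells. Tendon markers summed to 152 and 30.2 CPM, mostly Egr1. Dpt, Apoe and Col3a1 were each above the other cells in both cultures, while Cd34, a marker of progenitors in tissue, had 0.232 CPM without and 0.0491 CPM with the polymer, close to absent.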

How the data were processed

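Single-cell RNA of 5 libraries was measured with the 10x Genomics 3' assay. The deposited matrices give raw UMI counts for each barcode and gene. The submitters' processing notes name Cell Ranger 3.1.0 and GRCm38, but the version in the matrix headers is 5.0.1, so it is uncertain. The chemistry is v2 per the labels' protocols, but the barcodes look like those of v3. The annotation release is not given in the sources used here.

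From the deposited counts, UMIs were summed over the cells of a set and expressed as CPM, and ratios are log2((CPM + 1)/(CPM + 1)). Levels have exact Poisson, ratios exact conditional binomial and shares Clopper-Pearson 95% intervals. A gene at 0 stayed at 0 in the ratios, and a floor of 3 counts over the set was used for the smallest fold given for Cfd. List counts take members with at least 20 CPM and list medians members with at least 5 CPM. Transcript lengths and positions came from GENCODE vM21 (32158 of 32285 genes). To remove the length trend, genes were put in 20 bins by length and each bin was centred on its median ratio. No doublet caller was run and no doublets were removed, and 1 alternative drops the 5% of cells with the highest UMI totals. TMM factors came from edgeR 4.0.16 in R 4.3.3, and the rest from Python 3.11.15 with numpy 2.4.6, scipy 1.17.1 and pandas 2.3.3. Scripts were checked on simulated data.

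The members, the 41 gene lists and the tests were chosen with earlier results of these data known, so no list is independent evidence. Genes were named by size of ratio among those with at least 50 CPM, leaving out mitochondrial and ribosomal protein genes and unnamed models. They are the 12 highest and 12 lowest against the other cells with 1 sign in both cultures, the 10 highest and lowest against day 0 and between treatments, and the 8 highest and lowest against day 3, beside the marker genes and examples from each list. The 3 ranges of Apoe, Acta2 and Cidec were chosen after their values were seen. Alternatives varied the Adipoq threshold, the filters on UMIs, mitochondrial share and division, the CPM minimum, the pseudocount, the scaling, the weight of cells and the thinning.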

Additional observations from a re-analysis of the deposited data

Results flagged for a closer look

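For 2 of the genes named above, the P-G3 to untreated ratio had opposite signs in the Adipoq-low and the other day 6 cells, and in each case the difference was not tested, since there is 1 library in a group. Hmga2 had a log2 ratio of -1.76 in the Adipoq-low cells, from an untreated level of 70.2 CPM, and 0.36 in the other cells, from 2.83 to 3.93 CPM, a difference of -2.12. A few cells set much of its size: the untreated Adipoq-low level was 329 CPM in the 71 cells with at least 2000 CPM of Acta2 and 35.8 CPM in the rest, against 40.7 and 17.4 CPM with P-G3. Spp1 had 0.48 in the Adipoq-low cells, from 118 to 166 CPM, and -0.79 in the other cells, from 44.9 to 25.6 CPM, a difference of 1.27. The median cell had 0 CPM of Spp1 in each of these sets. The highest cell had 4826 CPM untreated and 7123 CPM with P-G3 in the Adipoq-low sets, and 5449 and 8931 CPM in the others. The part of a few cells in these ratios was not tested.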

How the results depend on the processing

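No paired analysis was possible because each group holds 1 library, and for the same reason no replicate could be left out. The Adipoq-low share, 40.7% untreated and 28.2% with P-G3, was 34.3% and 22.6% with the threshold at 50 CPM, 48.2% and 34.1% at 200, 25.4% and 13.9% for cells without an Adipoq UMI, and 58.1% and 38.7% for cells of 20000 to 60000 UMIs. It was 25.9% with P-G3 from 20000 UMIs, 45.8% untreated with at most 10% mitochondrial UMIs, and 38.2% untreated without cells of high Cidec, an alternative chosen after seeing the data. The count of genes between treatments moved most. It was 129 higher and 75 lower with TMM, 168 and 57 with median-of-ratios scaling and 60 and 41 with the length trend removed, 302 were lower with a pseudocount of 5 CPM, and 14 were higher among cells without an Adipoq UMI. With a minimum of 5 CPM in place of 20, 688 genes were higher than in other cells untreated, 383 higher and 502 lower with P-G3, 1056 higher and 637 lower against day 0, 291 and 210 against day 3 untreated, 223 and 327 against day 3 with P-G3, and 981 lower between treatments. With a minimum of 50 CPM the counts were 180 higher than in other cells untreated, 105 and 207 with P-G3, 320 and 196 against day 0, 31 lower against day 3 untreated, 82 and 56 against day 3 with P-G3, and 5 and 202 between treatments, as fewer genes are then counted. Without thinning the shares of cells with a UMI were 60.1% and 44.4% for Dpt, 50.1% and 34.2% for Apoe and 99.0% and 95.2% for Col3a1.

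Over 17 settings, 2111 of 3429 single-gene values stayed within the counting interval, and 1316 moved beyond it or had no interval. A change of sign in a ratio under 2-fold was counted among these 1316. Of ratios of 2-fold or more, 2 values reversed, both for Retnla between treatments. They were 0.37 among cells without an Adipoq UMI and 0.28 without cells of high Cidec. The cause of these moves was not tested. Depth limits the smallest level that a count of 0 allows to 0.116 CPM in the untreated and 0.147 CPM in the P-G3 Adipoq-low cells.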
